A study of Equus asinus with 3 samples.

Results

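GPX4, GPX6, PRDX6 and GSTM3 are 4 enzymes that detoxify peroxides or their products, and their transcripts were followed in single cells of the donkey (Equus asinus) along the path of the sperm. They were chosen by name, with earlier results of these data known. All 4 were found among the features of each of 3 libraries, out of 34266 distinct features in all. GSTM3 is listed in the files under its locus identifier and was matched to its symbol through the RefSeq gene table. The libraries were made from testis, from the caput of the epididymis (its head) and from the corpus (its body), with 1 library per tissue. The series names 3 sexually mature males without further age, breed or treatment, and nothing in the labels ties an animal to a library. The labels call the testis cells germ cells and the epididymal cells somatic cells, and no sort is described. With 1 library per tissue no difference has a replicate check and no p-value is given.

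Sperm are rich in polyunsaturated membrane lipids and carry little cytoplasm, so they depend on enzymes loaded during spermatogenesis or supplied by the epididymal duct. GPX4 is a selenoenzyme that reduces lipid hydroperoxides inside membranes, and in spermatids it is also known as a cross-linked structural protein of the sheath around the sperm mitochondria. GPX6 is a glutathione peroxidase related to the secreted forms, PRDX6 is a single-cysteine peroxiredoxin that also has phospholipase activity, and GSTM3 is a mu-class glutathione transferase known from testis and brain. Luminal epithelial cells line the epididymal duct and secrete the fluid in which sperm mature.

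Molecules were counted by unique molecular identifiers (UMIs). There were 47686179 UMIs over 8610 barcodes for testis, 13203203 over 9478 for caput and 4142512 over 9611 for corpus. Median UMIs per kept cell were 4696, 1145 and 371. Clusters were made in each library without the redox genes and named from markers, so that every name means cells that resemble the type. Testis held 1962 late spermatocyte-like, 1872 round spermatid-like, 908 elongating spermatid-like and 2806 unnamed germ-like cells. The late spermatocyte-like name rested on 3 and 4 of 16 measured markers in its 2 clusters, the round name on 8 and 15 of 18, and the elongating name on 13 and 15 of 16. The luminal epithelial-like class had 2156 cells in caput, with 10 to 12 of 18 measured markers counted per cluster, and 160 cells in corpus, with 14 of 18. Luminal markers summed to 10401 counts per 1000000 UMIs (CPM) in the caput class and 32873 CPM in the corpus class, where LCN8 was at 0, against 1398 CPM in caput fibroblast-like cells. A further 5008 caput and 4768 corpus barcodes were led by very long genes and stayed unnamed. In testis, round spermatid markers summed to 4180 CPM in the round class and 6158 CPM in the elongating class. Elongating spermatid markers summed to 7214 and 21339 CPM in the same order, so these spermatid classes overlap in their markers.

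Levels are given in CPM of the class, with 95% intervals that cover counting error only. A ratio counted as beyond 2-fold when its whole interval lay past 2-fold and the higher side had at least 50 UMIs, and only such genes are said to have risen or fallen. In a class with fewer UMIs in all, 50 UMIs are a higher CPM, so genes higher there reach the minimum less easily. The 4 enzymes had different sites of highest level. GPX4 was highest in testis elongating spermatid-like cells, GSTM3 in late spermatocyte-like cells, and PRDX6 and GPX6 in caput luminal cells.

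**Figure D1:**
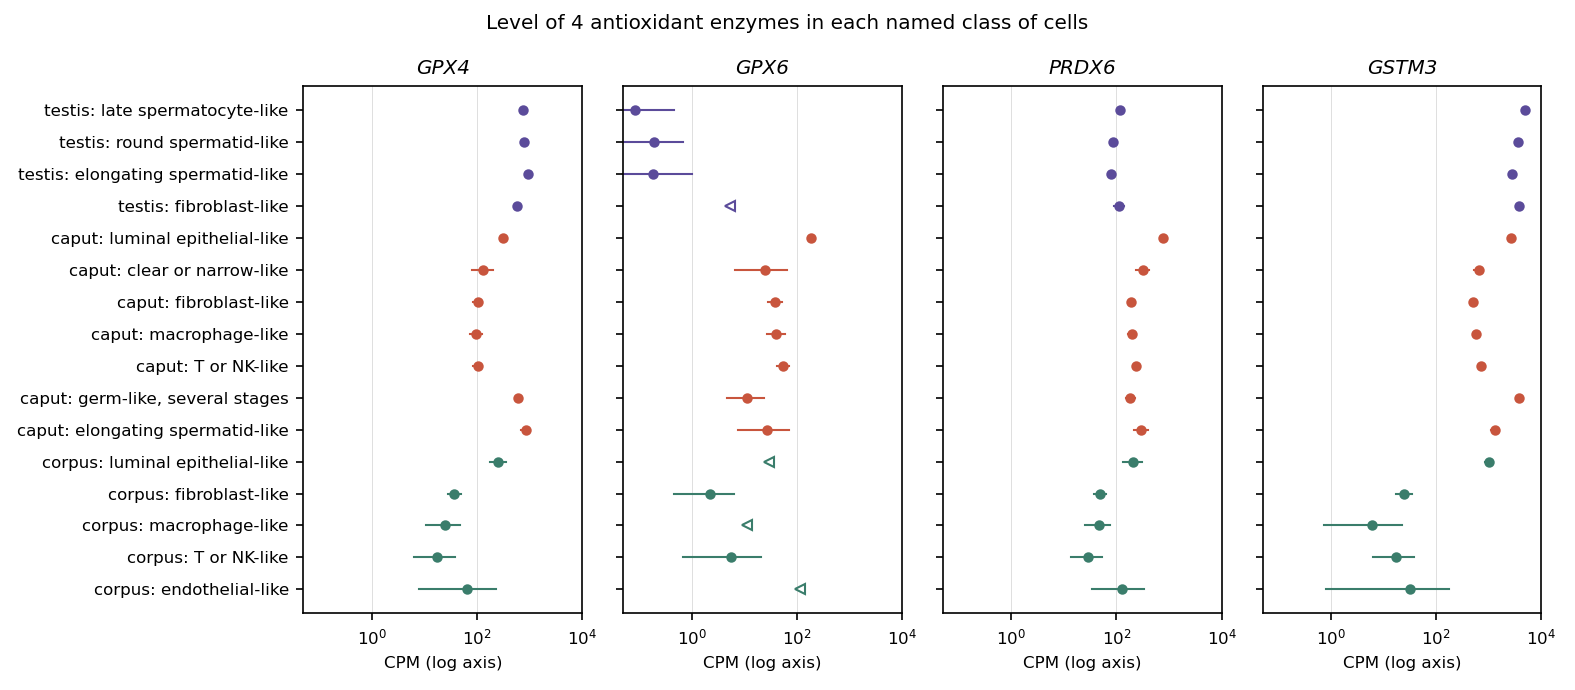
Level of each enzyme (CPM, log axis) in every named class, with 95% counting intervals, coloured by library; open triangles mark the upper limit where 0 UMIs were counted. GPX4 and GSTM3 stand highest in testis germ-like cells, PRDX6 and GPX6 in caput luminal epithelial-like cells at 757 and 188 CPM, and GSTM3 in corpus classes other than luminal lies at or under 32.0 CPM.

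GPX4, the lipid hydroperoxidase, stayed between 759 and 942 CPM through the named germ stages. It was at 759 CPM (744 to 775) in late spermatocyte-like cells, 770 CPM (754 to 787) in round spermatid-like cells and 942 CPM (916 to 968) in elongating spermatid-like cells. The elongating class stood above the other 2, and the first 2 overlapped. Round over late spermatocyte-like cells gave a ratio of 1.01 (0.985 to 1.05), and elongating over round 1.22 (1.18 to 1.27), both inside 2-fold. Per cell, the means were 4.65, 4.29 and 5.60 UMIs.

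GSTM3, the glutathione transferase, went the other way. It was at 4823 CPM (4784 to 4862) in late spermatocyte-like, 3656 CPM (3619 to 3693) in round and 2734 CPM (2690 to 2778) in elongating spermatid-like cells, and no 2 of these intervals overlapped. Each step was 1.32-fold lower (1.30 to 1.34) and 1.34-fold lower (1.31 to 1.36) than the stage before, inside 2-fold. Cells held on average 29.6, 20.4 and 16.3 UMIs of it.

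PRDX6, the peroxiredoxin, was at 115 CPM (109 to 121), 86.7 CPM (81.1 to 92.5) and 77.6 CPM (70.4 to 85.4) in the same order. The spermatid classes overlapped each other and stood below the spermatocyte-like class, from which round spermatid-like cells differed 1.32-fold (1.22 to 1.44). GPX6 had 1, 2 and 1 UMIs in these classes and 9 UMIs in all 8545 testis cells, at or under the floor of 3 counts per class, so no fold is given for it in testis.

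Of the 4 enzymes, 3 were tested and 0 passed the 2-fold rule in either germ comparison; GPX6 had too few UMIs. Over all 13316 genes tested between round and late spermatocyte-like cells, 31.3% were higher and 12.6% lower in round cells. Between elongating and round cells, 8.63% of 12116 were higher and 1.53% lower. The 3 tested enzymes therefore sat among the majority of genes that stayed inside the limit.

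The elongating class joined 2 clusters that differed for both abundant enzymes. In order of a marker index, which sets elongating spermatid markers against spermatocyte markers in each cell, the 9 germ-like clusters held GPX4 at 767, 736, 778, 802, 791, 764, 774, 867 and 1169 CPM. The last cluster, with 258 cells led by the protamine and transition protein genes PRM2, TNP2 and TNP1, stood apart from the others. GSTM3 was at 4674, 5248, 4767, 4391, 4128, 3904, 3529, 2958 and 2052 CPM in these clusters, lower at every step after the second. From the first to the last cluster GPX4 was 1.52-fold higher (1.44 to 1.61) and GSTM3 was 2.28-fold lower (2.19 to 2.37). The GSTM3 interval between these ends lay past 2-fold. With the last cluster alone in place of the elongating class, the ratio over round cells was 1.52 (1.44 to 1.60) for GPX4. GSTM3 was then 1.78-fold lower (1.71 to 1.85), and both were inside 2-fold.

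PRDX6 ran from 113 and 118 CPM in the first 2 clusters to 76.5 and 80.9 CPM in the last 2. Its first and last clusters differed 1.40-fold (1.15 to 1.73), with a lower level at the end. The 3 unnamed germ-like clusters lay between the late spermatocyte-like and round spermatid-like clusters in the index. Summed, they held PRDX6 at 103 CPM (97.8 to 108) and GSTM3 at 4439 CPM (4405 to 4473), between the 2 named classes, and GPX4 at 790 CPM (775 to 804).

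Cut into 10 ranges of the same index, the cells of these clusters gave the same order of levels. The cells were taken by cluster name and the index uses marker lists that named the classes, so this is not an independent check. GPX4 stayed between 751 and 803 CPM in the first 8 ranges, then stood at 819 and 947 CPM. GSTM3 was highest in the third range at 4810 CPM and lowest in the tenth at 2646 CPM. PRDX6 was highest in the fourth range at 117 CPM and lowest in the tenth at 77.2 CPM. The last range over the first was 1.26 (1.2 to 1.32) for GPX4, while the first over the last was 1.76 (1.72 to 1.80) for GSTM3 and 1.45 (1.25 to 1.68) for PRDX6.

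**Figure D2:**
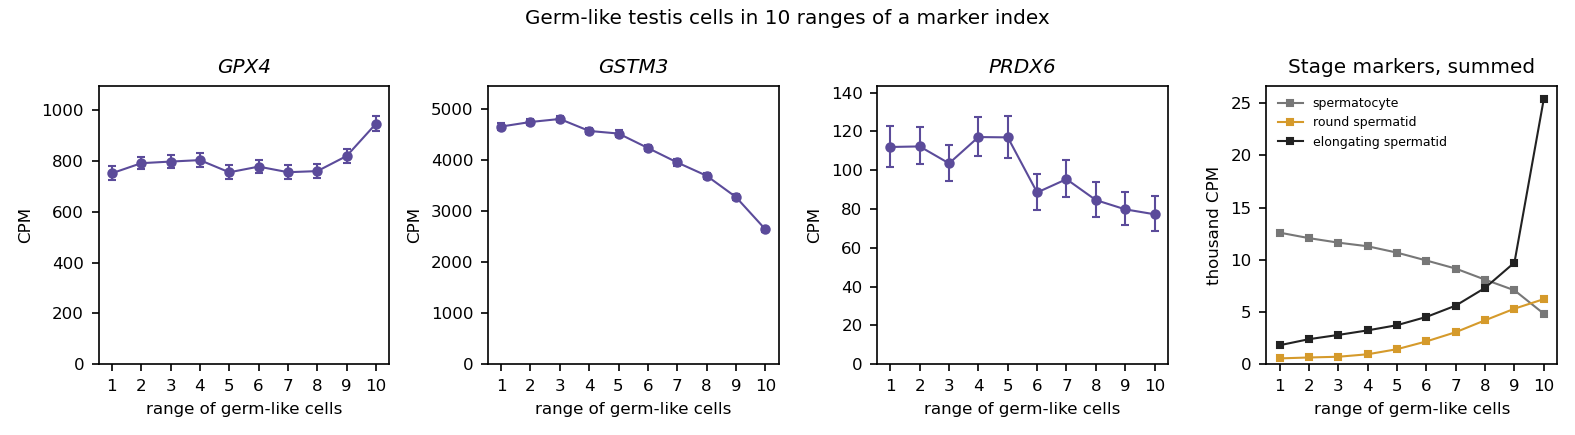
CPM of GPX4, GSTM3 and PRDX6 in 10 equal-sized ranges of germ-like testis cells ordered by the marker index, with 95% counting intervals, and the summed stage markers (in units of 1000 CPM) in the same ranges. GPX4 ends highest at 947 CPM while GSTM3 and PRDX6 end lowest at 2646 and 77.2 CPM.

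At least 1 UMI of GSTM3 was counted in 100% of late spermatocyte-like, 99.9% of round and 99.6% of elongating spermatid-like cells, at medians of 5252, 4942.5 and 4863 UMIs per cell. With each cell thinned to 300 UMIs the shares were 75.1% (73.1 to 77), 65.9% (63.7 to 68.0) and 56.3% (53.0 to 59.5). The testis fibroblast-like cluster had it in 98.8% of cells, at a median of 3149 UMIs, and in 58.6% (50.8 to 66.1) when thinned, so these shares do not separate germ-like cells that express GSTM3 from background. GPX4 at the same depth was seen in 20.8% (19.1 to 22.7), 20.3% (18.5 to 22.2) and 27.8% (24.9 to 30.8), against 89.9%, 90.8% and 94.6% unthinned; the fibroblast-like cluster had it in 15.4% (10.3 to 21.7) and 68.0%. The thinned GSTM3 shares had the order of the CPM values. For GPX4 the elongating class was highest, and the first 2 classes overlapped.

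Within most germ-like clusters cells differed little beyond counting. At 1000 UMIs per cell, GSTM3 averaged 4.71 UMIs in the larger late spermatocyte-like cluster, with 2 at the 10th and 8 at the 90th percentile. Its Fano factor, the variance over the mean, was 1.07 there, where counting alone gives 1. In the last elongating cluster the mean was 1.99 and the Fano factor 1.34.

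Somatic levels in testis could not be read off. The testis fibroblast-like cluster (169 cells) held GPX4 at 589 CPM, PRDX6 at 113 CPM and GSTM3 at 3716 CPM, which is 77.6%, 98.1% and 77.1% of the late spermatocyte-like level. In the same cluster 28 spermatocyte markers stood at a median of 69.0% of their late spermatocyte-like level (27.7 to 511%). The part of germ-cell RNA shared between cells, in these values and in the ratios between germ stages above, was not tested.

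Of 109 measured genes in 9 lists of redox genes, which include the 4, 57 were tested between round and late spermatocyte-like cells; 11 rose and 5 fell, beside 31.3% and 12.6% of all genes, and the median log2 ratio was -0.31 beside 0.10 over all genes tested. Between elongating and round cells 54 were tested; 5 rose and 1 fell, with a median of -0.15 beside -0.18; over all genes the shares were 8.63% and 1.53%.

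Among the peroxiredoxins, PRDX4, which works in the endoplasmic reticulum, rose 13.2-fold (11.2 to 15.8) from 12.2 to 162 CPM in round spermatid-like cells. TXNDC8, a thioredoxin of the spermatid, rose 30.8-fold (25.4 to 37.7). In the glutathione lists OPLAH, which recycles oxoproline, rose 13.8-fold (9.33 to 21.3) and GCLM, a subunit of glutamate-cysteine ligase, 7.22-fold (5.01 to 10.7). NCOA4, the receptor for ferritin degradation, rose 10.9-fold (9.27 to 13.0), and SEPHS1, a selenophosphate synthetase homologue, 3.42-fold (3.12 to 3.75).

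SECISBP2, which binds selenoprotein messages during translation, was 2.45-fold lower (2.25 to 2.66) in round than in late spermatocyte-like cells. NME8, a thioredoxin-domain protein, was 2.41-fold lower (2.28 to 2.56). SQSTM1, an autophagy adaptor that also binds KEAP1, was 7.34-fold lower (6.16 to 8.80). POR and LPCAT3 of the lipid peroxidation list also fell, to 5.75 and 30.9 CPM.

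In elongating cells TXNDC2, a sperm thioredoxin, rose 22.9-fold (10.6 to 58.8) over round cells, GLRX2, a mitochondrial glutaredoxin, 9.33-fold (6.22 to 14.4), and GSTO2, an omega-class transferase, 8.64-fold (6.36 to 12). SEPHS1 rose again, 2.20-fold (2.07 to 2.35), as did NCOA4. LPCAT3, which loads polyunsaturated chains into phospholipids, was 2.74-fold lower (2.08 to 3.66). A separate list of 12 measured genes covered the sperm mitochondrial sheath and its disulfide-rich partners, and all 12 were tested. In elongating cells 7 were higher and 0 lower, beside 8.63% and 1.53% of all genes. The median log2 ratio was 2.31 beside -0.18 over all genes tested. PRM2, TNP2, SPEM1, TNP1 and ODF1 of this list are also markers that named the elongating class. The count and median are thus not independent of the naming. SPATA18, a mitochondrial quality-control gene, rose 22.9-fold (18.0 to 29.6), while GPX4, which is known in the same sheath, stayed at 1.22.

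In the epididymis all 4 enzymes stood higher in caput luminal cells than in caput fibroblast-like cells. GPX4 was at 313 CPM (293 to 333) against 103 CPM (84.8 to 124), GPX6 at 188 CPM (173 to 204) against 39.4 CPM (28.4 to 53.3), PRDX6 at 757 CPM (727 to 789) against 190 CPM (165 to 218) and GSTM3 at 2588 CPM (2531 to 2645) against 504 CPM (462 to 548). No interval of a luminal value reached the fibroblast-like value. The ratios were 3.03 (2.49 to 3.73), 4.76 (3.48 to 6.68), 3.98 (3.44 to 4.61) and 5.14 (4.71 to 5.62), and 4 of 4 passed the rule. Of all 7420 genes tested in this comparison 8.1% were higher and 11.6% lower in luminal cells. The enzymes were chosen with earlier results of these data known, so 4 of 4 is not independent of their choice.

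Secretory transcripts of the duct were also counted in the other caput classes, at lower levels. In fibroblast-like cells, the median of 6 luminal secretory genes was 13.1% of the level in luminal cells (8.66 to 16%), and GPX4 was at 33.0%, GPX6 at 21.0%, PRDX6 at 25.2% and GSTM3 at 19.5% of its own. In macrophage-like cells the secretory genes were at 12.9% and the enzymes at 21.7 to 30.8%. In T or NK-like cells the secretory genes were at 17.1% and the enzymes at 27.4 to 32.9%. All 4 enzymes stood above the range of the secretory genes in these 3 classes. Against 15 markers of the luminal class, whose medians there were 18.2%, 17.1% and 29.0% with highest values of 68.2%, 126% and 127%, they lay within the range. That range is wide, and all 4 enzymes stood above the marker median in fibroblast- and macrophage-like cells. In T or NK-like cells GSTM3, at 27.4%, stood under it and the other enzymes above. The part of luminal RNA in these enzyme values was not tested.

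Clear or narrow-like cells, the acid-secreting cells of the duct (105 cells), held GPX4 at 132 CPM (81.6 to 201), PRDX6 at 314 CPM (233 to 414) and GSTM3 at 646 CPM (527 to 784). PRDX6 was there at 41.4% of its luminal level, GPX4 at 42.1%, GSTM3 at 25.0% and GPX6, with 4 UMIs, at 13.4%. The 6 luminal secretory genes were at a median of 11.9% in these cells (4.37 to 12.8%). The 15 luminal markers were at a median of 65.1% (0 to 473%). The part of luminal RNA in the enzyme values was not tested.

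**Figure D3:**
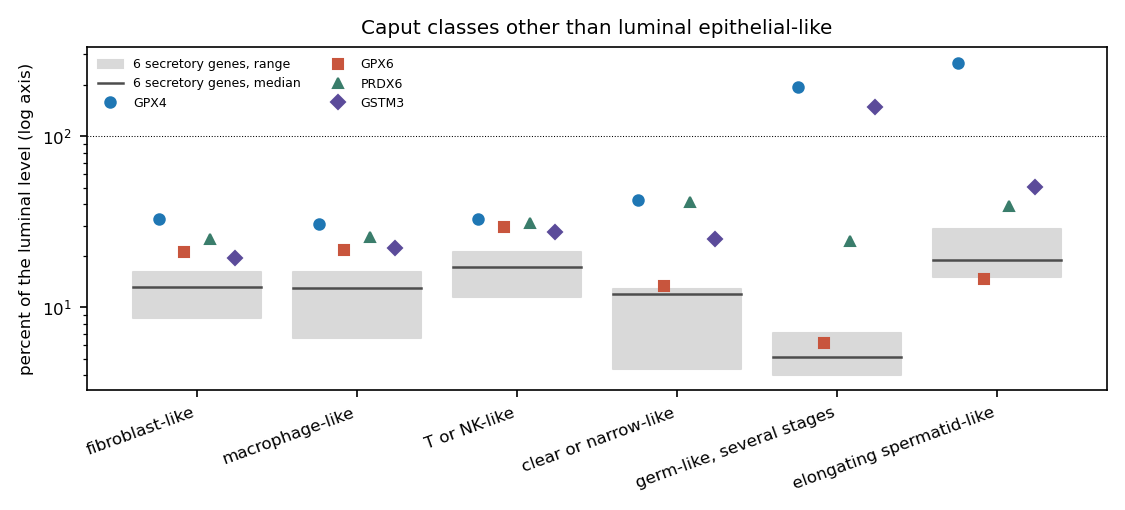
Level of each enzyme in the other caput classes as a percent of its caput luminal epithelial-like level (log axis); grey boxes and lines give the range and median of 6 luminal secretory genes in the same cells. In fibroblast-, macrophage- and T or NK-like cells the enzymes lie above the grey boxes at 19.5 to 33.0%, and in the germ-like clusters GPX4 lies above 100%.

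The corpus library, with its lower depth, gave a wider contrast for GSTM3. Corpus luminal cells held GSTM3 at 999.7 CPM (833 to 1190) and corpus fibroblast-like cells at 24.5 CPM (16.9 to 34.5), a ratio of 40.7 (27.6 to 61.7). In those fibroblast-like cells GSTM3 was at 2.46% of its luminal level, and the median of 6 luminal markers was 0.917%. GPX4 was at 254 CPM (174 to 358, 32 UMIs) against 37.2 CPM (27.6 to 49.0), a ratio of 6.83 (4.24 to 10.9). PRDX6 was at 206 CPM (135 to 302, 26 UMIs) against 49.1 CPM (38.0 to 62.5), a ratio of 4.20 (2.56 to 6.71). Both had too few UMIs for the rule, so 1 of the 4 enzymes was tested and 1 was higher, beside 3.24% higher and 7.16% lower of 4592 genes. GPX6 had 0 UMIs in luminal and 3 in fibroblast-like cells.

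Between the regions, 3 of the 4 enzymes were higher in caput luminal cells. PRDX6 was at 757 CPM in caput and 206 CPM in corpus, a ratio of 3.67 (2.5 to 5.63). GSTM3 was at 2588 and 999.7 CPM, a ratio of 2.59 (2.17 to 3.11). GPX6 had 576 UMIs (188 CPM) in caput and 0 of 126032 in corpus luminal cells. The floor of 3 counts allows up to 23.8 CPM in corpus. Caput was 7.89-fold above that floor, and the exact interval of the ratio began at 6.39. With at least 500 genes per cell these values were 5.0 and 4.05. They were 4.16 and 3.28 for caput cluster 7 alone. For cluster 8 alone, where GPX6 had too few UMIs for the rule, they were 3.24 and 2.52. GPX4 was at 313 and 254 CPM, a ratio of 1.23 (0.867 to 1.81), and the intervals of both levels overlapped. Over 5188 genes tested, 2.51% were higher and 1.29% lower in caput, with a median log2 ratio of 0.51, against 1.88 for PRDX6, 1.37 for GSTM3 and 0.30 for GPX4. With at least 500 genes required per cell, PRDX6 at 2.94 (1.92 to 4.75) and GSTM3 at 2.15 (1.76 to 2.65) were no longer past the rule. Fibroblast markers summed to 1555 CPM in corpus luminal cells (LUM and DPT at 0) and 367 CPM in caput luminal cells, and macrophage markers to 817 and 352 CPM; their part in the ratios was not tested.

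The caput luminal class was not uniform. Its 3 clusters were led by DEFB119, LCN10 and EDDM13 (cluster 2, 1430 cells), by CST11, LCN8 and PTGDS (cluster 7, 400 cells) and by the defensin DEFB129 (cluster 8, 326 cells). GSTM3 was at 3085, 1089 and 2529 CPM in clusters 2, 7 and 8. Cluster 7 stood 2.83-fold under cluster 2 (2.62 to 3.07), and against corpus luminal cells its ratio was 1.09 (0.899 to 1.33). The higher GSTM3 of caput thus rested on clusters 2 and 8, with ratios over corpus of 3.09 (2.59 to 3.71) and 2.53 (2.11 to 3.06).

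PRDX6 was even across them, at 779, 735 and 702 CPM, and each cluster alone exceeded corpus by at least 3.4-fold in its point estimate, with intervals from 2.28 upward. GPX6 was at 247 CPM in cluster 2, 99 CPM in cluster 7 and 77.1 CPM in cluster 8, so that cluster 2 was 2.49-fold above cluster 7 (1.91 to 3.31) and 3.20-fold above cluster 8 (2.32 to 4.52). Clusters 7 and 8 did not differ beyond counting error for GPX6 (1.28, 0.850 to 1.96). GPX4 was at 336, 195 and 365 CPM, lowest in cluster 7, where its ratio to corpus was 0.767 (0.516 to 1.17).

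**Figure D4:**
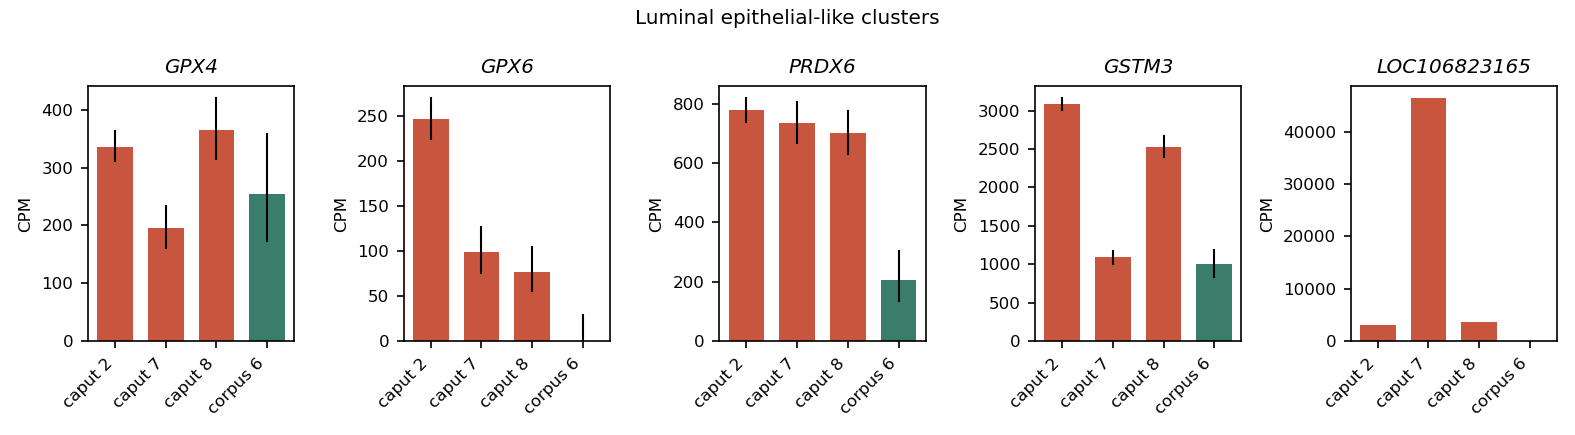
CPM with 95% counting intervals of the 4 enzymes, and CPM of the locus LOC106823165 that contains GPX6, in caput luminal clusters 2, 7 and 8 and corpus luminal cluster 6; axes start at 0 and differ in scale. PRDX6 is even across the caput clusters at 702 to 779 CPM, GSTM3 and GPX4 are lowest in cluster 7, GPX6 is highest in cluster 2, and LOC106823165 is highest in cluster 7.

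GPX6 needs a caution about its place in the genome. In the RefSeq table it lies inside LOC106823165, and nothing in the labels or file headers says how reads of overlapping genes were counted. That locus was far more abundant than GPX6, with 36334 UMIs (11842 CPM) in caput luminal cells and 2 UMIs (15.9 CPM) in corpus luminal cells. The split over clusters was different: LOC106823165 was at 3021, 46477 and 3550 CPM in clusters 2, 7 and 8, so GPX6 counts were 8.17%, 0.213% and 2.17% of it. GPX6 was therefore not a fixed share of the larger locus across these luminal clusters. In other named caput classes the share was 3.84% (fibroblast-like), 5.55% (T or NK-like), 5.97% (clear or narrow-like) and 6.41% (macrophage-like). It was 1.03% in the elongating spermatid-like and 2.06% in the other germ-like cluster of caput. Whether reads of the locus entered the GPX6 counts was not tested. Both were low in testis (9 and 104 UMIs) and in corpus (17 and 101 UMIs).

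For GPX4 and PRDX6 such limits were fewer, while GSTM3 has abundant neighbours in fibroblast-like cells. GPX4 overlaps SBNO2 in the RefSeq table, which had 13 UMIs in all testis cells beside 36628 of GPX4, and 52 beside 2252 in caput. PRDX6 overlaps no gene there. GSTM3 overlaps none but has mu-class neighbours, and GSTM4 had 6 UMIs in late spermatocyte-like cells beside 57990 of GSTM3. In caput, GSTM4 was at 38.8 CPM in luminal and 52.5 CPM in fibroblast-like cells, beside 2588 and 504 CPM for GSTM3. Counts per gene do not separate the mitochondrial, cytosolic and nuclear forms of GPX4.

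At equal depth the share of luminal cells with a UMI kept the order of the CPM values for GSTM3. Thinned to 300 UMIs, 48.1% of caput luminal cells (46.0 to 50.2) and 23.9% of corpus luminal cells (17.5 to 31.3; 1 cell left out as too shallow) held it, against 13.0% of caput and 0.712% of corpus fibroblast-like cells. Unthinned shares were 86.8%, 43.1%, 39.6% and 1.11%, at medians of 1187.5, 662, 1256.5 and 397 UMIs. PRDX6 was in 19.0% (17.4 to 20.7) of caput and 6.29% (3.06 to 11.3) of corpus luminal cells at 300 UMIs, with 58.9% and 15.0% unthinned. GPX6 was in 5.15% (4.25 to 6.17) of caput luminal cells and 1.27% of caput fibroblast-like cells, with 18.8% and 5.21% unthinned.

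GSTM3 varied more from cell to cell in luminal cluster 2 than counting alone gives. At 1000 UMIs (431 shallower cells left out of 1430) it averaged 3.14 UMIs, with 0.8 at the 10th and 6 at the 90th percentile and 14 at most, and a Fano factor of 1.77. PRDX6 in the same cells averaged 0.791 UMIs with a Fano factor of 1.06, and GPX6 0.242 with 1.37. A Fano factor can grow with the mean, so it does not rank these genes. The spread of GSTM3 was not particular to cluster 2. Its Fano factor was 1.83 and 1.58 in luminal clusters 7 and 8. It was 2.26 in macrophage-like, 1.99 in T or NK-like and 1.52 in fibroblast-like cells of caput. Doublets may remain in this library, and their part in the spread was not tested.

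Germ-like cells were also found in caput. The 91 elongating spermatid-like cells there held GPX4 at 841 CPM (698 to 1004), against 942 CPM in testis, a ratio of 0.893 (0.740 to 1.07). Their GSTM3 was at 1302 CPM (1123 to 1502), 2.1-fold lower (1.82 to 2.44) than in testis. Their PRDX6 was at 296 CPM (214 to 399), 3.82-fold higher (2.72 to 5.23), and GPX6 at 27.6 CPM (4 UMIs). The 6 luminal secretory genes stood in this cluster at 18.9% of their luminal level, and that share of the luminal level would be 143 CPM for PRDX6, 489 CPM for GSTM3, 59.2 CPM for GPX4 and 35.5 CPM for GPX6. The part of luminal RNA in these values was not tested.

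A second germ-like cluster of caput, with markers of several stages (145 cells), held GPX4 at 604 CPM and GSTM3 at 3824 CPM. These lay 1.26-fold (1.13 to 1.40) and 1.26-fold (1.21 to 1.32) under the testis late spermatocyte-like cells. PRDX6, at 183 CPM, was 1.60-fold above them (1.31 to 1.94). Secretory genes were at 5.14% of their luminal level in this cluster, which would be 38.9 CPM for PRDX6.

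Ordered over all 16 named classes, GPX4 was highest in the germ-like classes of both libraries (604 to 942 CPM) with the testis fibroblast-like cluster (589 CPM), then luminal cells (254 and 313 CPM), then the rest (17.2 to 132 CPM). The elongating spermatid-like cells of testis and caput did not differ beyond counting error, nor did caput and corpus luminal cells. PRDX6 was highest in caput luminal cells, 2.41-fold above the next class (1.82 to 3.26), and from the second class in the order (clear or narrow-like, caput) to the eleventh (testis fibroblast-like) no class differed from the next beyond counting error. GPX6 in caput luminal cells was 3.39-fold above the next class (2.61 to 4.46). GSTM3 was highest in late spermatocyte-like cells, 1.26-fold above the next class (1.21 to 1.32), and lowest in corpus macrophage-like cells at 6.10 CPM (2 UMIs).

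Compared over 34 clusters of the 3 libraries, the genes whose log2 CPM pattern was most like GPX4 were SLC25A39, the mitochondrial glutathione carrier (Pearson r 0.974), GON7 (0.964) and the mitochondrial phosphatase PTPMT1 (0.957). For GPX6 they were the epididymal secretory genes LCN10 (0.953), EDDM13 (0.952) and DEFB118 (0.943). For PRDX6 they were MIEN1 (0.931), CCDC167 (0.931) and GSTZ1, a zeta-class transferase (0.917). For GSTM3 they were HOXD8 (0.938), GPX4 itself (0.937) and C30H1orf53 (0.927). Clusters of a library share its depth and free RNA. For GPX4 and GSTM3, r was -0.54 over the 13 testis clusters alone and 0.904 over the 21 epididymal clusters.

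The redox lists placed the luminal enzymes among few others. Between caput and corpus luminal cells 45 redox genes were tested; 4 rose and 0 fell, beside 2.51% and 1.29% of all genes, and the median log2 ratio was 0.49 beside 0.51 over all genes tested (0.62 and 0.56 with genes at 0 UMIs on 1 side set to their bound). The 4 were GPX6, PRDX6, GSTM3 and FTH1, the ferritin heavy chain, at 3002 against 1079 CPM, a ratio of 2.78 (2.35 to 3.32). Since 3 of these are the enzymes the text was written about, the count is not independent of their choice. The superoxide dismutase SOD1 was at 703 and 611 CPM, a ratio of 1.15 (0.916 to 1.46).

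In caput luminal over fibroblast-like cells 64 redox genes were tested, of which 13 rose and 5 fell, beside 8.1% and 11.6% of all genes. The median log2 ratio was 0.17 for the redox genes beside -0.05 over all genes tested. The 13 include the 4 enzymes, so the count is not independent of their choice. Beside the 4 enzymes, GPX1, the general cytosolic peroxidase, rose 2.65-fold (2.11 to 3.36), GSTP1, the pi-class transferase, 5.44-fold (3.04 to 10.7), GGT1, which breaks down extracellular glutathione, 5.13-fold (2.62 to 11.5), and LRP2, a receptor that takes up selenoprotein P, 3.83-fold (3.28 to 4.51). Selenoprotein P itself, SELENOP, was 10.6-fold lower (9.62 to 11.7), at 166 against 1763 CPM. The thioredoxin inhibitor TXNIP was 7.28-fold lower (6.49 to 8.18), the plasma peroxidase GPX3 7.59-fold lower (4.57 to 13.0) and catalase, CAT, 3.24-fold lower (2.55 to 4.11).

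Corpus luminal over fibroblast-like cells left 25 redox genes to test, of which 1 rose (GSTM3) and 2 fell, beside 3.24% and 7.16% of all genes, with a median log2 ratio of -1.09 beside -0.85 (-1.16 and -0.93 with genes at 0 set to their bound). SELENOP was 8.30-fold lower (5.80 to 12.3) and TXNIP 4.37-fold lower (2.97 to 6.72), the direction they had in caput.

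**Figure D5:**
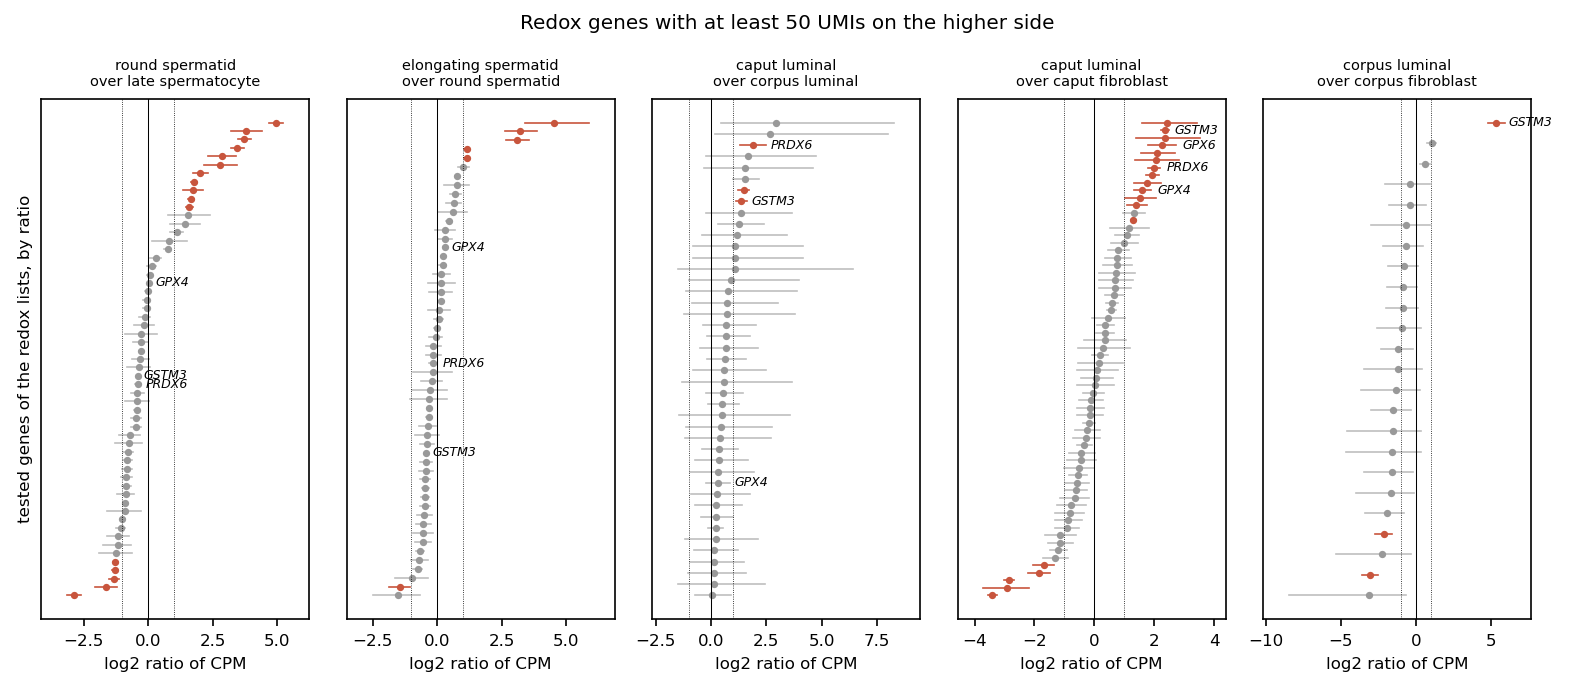
Log2 ratio of CPM with 95% counting intervals for every tested redox gene in 5 comparisons, sorted by ratio; red marks intervals wholly beyond 2-fold (dotted lines), and the enzymes are named. GPX6 and MSRB2 between caput and corpus luminal cells and SOD3 in corpus are not drawn because 1 side had 0 UMIs. GPX4, GSTM3 and PRDX6 lie inside the dotted lines in both germ comparisons and beyond them in caput luminal over fibroblast-like cells.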

How the data were processed

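Droplet single-cell libraries (DNBelab C series, per the labels' protocols) were made from testis, caput and corpus, 1 each. Values in the deposited matrices are raw UMI counts per gene, written by PISA 0.12 per the file headers. Cell Ranger 2.1.1 is listed, without its role, in the submitters' processing notes. Neither labels nor headers name an aligner or build, so no coordinates or sequences are printed. Symbols came from the files and, for 756 of 18266 locus identifiers, from a RefSeq gene table (EquAss-T2T_v2). All 3 libraries held the 4 enzymes.

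Cells with at least 200 genes were kept (8545, 9473 and 9598). Doublets were scored in the manner of Scrublet. Testis lost 65 barcodes (0.755%), caput 5 (0.0528%) and corpus 11 (0.114%), too few in the epididymal libraries for the scoring to be relied on, so doublets may remain there, and the testis share is low too. Barcode names are running numbers; 0 count profiles were shared between libraries. Each library was clustered with 2000 variable genes, without the redox lists, 30 principal components, 15 neighbours and Leiden resolution 1 (leidenalg 0.10.2, igraph 0.11.9, scikit-learn 1.9.0, numpy 2.4.6, scipy 1.17.1, Python 3.11.15). A name needed 3 markers at 2-fold over the median of the other clusters and a mean log2 ratio of 0.4; these thresholds were set after the clusters were seen. Clusters with markers of 2 lineages, or led by very long genes, stayed unnamed.

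UMIs were summed per library and class. Levels have exact Poisson, shares Clopper-Pearson and ratios exact conditional binomial intervals at 95%; UMIs are molecules, and intervals cover counting error only, not differences between animals. Ratios against 0 used a floor of 3 counts over the class, and medians of log2 ratios had 0.5 UMIs added to both sides. The rule was run over all genes and tested on simulated data: for caput against corpus luminal cells (34266 genes), it recovered 46.2% of tested genes simulated at 3-fold and 100% at 8-fold. The enzymes and lists were chosen with earlier results of these data known. Named redox genes were up to 4 per list and comparison with the interval farthest from 1. Other genes named only for their level (SOD1, GSTM4, LOC106827367, LOC106827366, SBNO2, LOC106823165) were chosen after their values were seen. Likeness used log2 of CPM plus 10 over clusters of at least 50 cells, among 10471 genes with at least 50 CPM in some cluster. Promoter motifs were not analysed here. Alternatives covered the cell and UMI minimum, clustering, doublets, scaling, fold, depth and single clusters.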

Additional observations from a re-analysis of the deposited data

How the results depend on the processing

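All 4 enzymes stayed higher in caput luminal than in fibroblast-like cells in 6 alternatives of cells, clusters and scaling, with ratios of 2.75 to 3.23 for GPX4, 4.25 to 5.46 for GPX6, 3.67 to 4.24 for PRDX6 and 4.76 to 5.48 for GSTM3; at 4-fold GSTM3 kept the call, and GPX4, GPX6 and PRDX6 lost it. Between caput and corpus, PRDX6 ranged from 2.94 to 3.84 and GSTM3 from 2.15 to 2.59; both lost the call with at least 500 genes per cell and at 4-fold. GPX6 had too few UMIs (26) once caput was thinned to the corpus total. In the germ comparisons between neighbouring classes no alternative brought an enzyme past 2-fold. Between the first and last germ-like clusters GSTM3 was past it, at 2.28-fold lower (2.19 to 2.37). In elongating over round cells GPX4 was at 1.44 and GSTM3 at 0.618 with the redox genes kept in the clustering. With the last elongating cluster alone they were at 1.52 and 0.561.

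Counts over all genes moved by more than 1.5 times in some settings. At 4-fold they were 450 (round, lower), 448 and 2 (elongating, higher and lower), 55 and 42 (caput over corpus), 111 and 410 (caput over fibroblast-like) and 133 (corpus over fibroblast-like, lower). With at least 10 UMIs they were 1631 (elongating, higher), 197 (caput over corpus, lower), 1383 (caput over fibroblast-like, lower) and 505 (corpus over fibroblast-like, higher). Genes lower in elongating cells numbered 621 with the redox genes kept, 299 and 331 at Leiden resolution 0.5 and 2.0, and 961 in the last cluster alone, against 185. Thinned caput gave 55 higher over corpus, and cluster 8 alone 75, against 130; corpus over fibroblast-like cells had 185 lower with 500 genes, against 329. The cause of each was not tested beyond the stricter or looser rule itself. The single-cluster settings were chosen after seeing the data. Round over late spermatocyte-like cells without the 5% highest doublet scores was not run, since no late spermatocyte-like cluster was then named. No paired analysis was possible because each group is 1 library. Depth limits corpus most: 32, 0, 26 and 126 UMIs of GPX4, GPX6, PRDX6 and GSTM3 in luminal cells.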

Other observations

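The barcodes led by very long genes, which entered no comparison between classes, differed between the epididymal libraries in their level of the enzymes. In the 5008 caput barcodes GPX4 was at 77.4 CPM (70.7 to 84.6), GPX6 at 46.6 CPM (41.5 to 52.3), PRDX6 at 170 CPM (160 to 181) and GSTM3 at 602 CPM (583 to 622). In the 4768 corpus barcodes they were at 3.17 CPM (1.16 to 6.89), 5.81 CPM (2.9 to 10.4), 12.1 CPM (7.69 to 18.2) and 4.75 CPM (2.17 to 9.02). The caput barcodes were not uniform, with GPX6 at 21.0, 99.9 and 23.5 CPM in their clusters 0, 1 and 5. Of the 17 UMIs of GPX6 in corpus, 11 were in the corpus barcodes led by very long genes and 0 in luminal cells.

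LOC106823165, the locus that contains GPX6 in the RefSeq table, reached 2687 CPM in the caput elongating spermatid-like cells, against 4.63 CPM in those of testis, while GPX6 was at 27.6 and 0.185 CPM. Within caput luminal cells, GPX6 was seen in 21.5% of the 954 cells above the median of LOC106823165 and in 16.7% of the 1202 at or below it, at medians of 1398 and 1092 UMIs per cell.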
